A study of Mus musculus with 12 samples.

Results

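Of 7025 intervals listed in the deposited junction table, 1279 were mid-length junctions of single-junction hosts. A junction was counted here when its interval spanned at least 1000 bp and under 50000 bp (end minus start, mm9 coordinates) and its named gene, the host, appeared in exactly 1 row of the whole table. The table named a gene for 6795 intervals and 2947 hosts in all. Of these hosts, 1557 had a single junction, which was under 1000 bp in 253 and of 50000 bp or more in 25. The other 1390 hosts had at least 2 junctions, and 4250 of theirs were mid-length. Length and the number of rows per gene chose the members, so neither is a result. Level, detection and genotype difference entered the choice only through the table itself. In every listed junction all 3 libraries of 1 genotype, or of both, reach a signal (normalised reads) of 2.03, the listing threshold. The number of rows per gene counts junctions that met this threshold. Member signal and host FPKM, set against hosts with several junctions, are therefore not independent of the choice.

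Tissue came from the hippocampus of mice aged 7 months, of genotype WT or 5xFAD, with no treatment of the animals named in the labels. Mice of the 5xFAD strain express human APP, and a further transgene, with familial Alzheimer's disease mutations in neurons from Thy1 regulatory sequence, and serve as a model of amyloid deposition. The 12 libraries formed 4 groups of 3, WT and 5xFAD under each of the title prefixes AT (junction table) and CG (gene FPKM table), prefixes that the labels do not spell out. The design text names ribosomal RNA-depleted sequencing and a variant with A-tailing and RNase R, and the labels do not tie the samples to different mice. The p-values below therefore refer to the spread between libraries, part or all of which may be technical.

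A circular RNA forms when the splicing machinery joins the end of an exon back to the start of the same or an earlier exon. Reads across that back-splice join mark the circle, and RNase R, an exonuclease that digests RNA with free ends, leaves circles largely intact. Circular RNAs are abundant in brain, many come from genes of neuronal function, and most hosts also make linear RNA, so a junction can be set beside the level of its host gene. The listed intervals are read here as back-splice junctions, on the basis of the design text. The sequences inside them are not printed, since no mm9 genome was used here.

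Signal is the authors' normalised read number for a junction in a library. Dividing it by its smallest step gave 438790, 695539 and 695528 junction reads for WT replicates 1 to 3 and 191408, 683540 and 659414 for 5xFAD. In the same order, 1 read was worth a signal of 0.374, 0.228 and 0.234 in WT and 0.866, 0.226 and 0.239 in 5xFAD. Both replicates 1 stood apart: over the members, pairs of libraries correlated at 0.464 to 0.847 on the log2(signal + 1) scale, and at 0.711 or more among the other 4. Among the CG libraries, the library labelled 5xFAD replicate 3 went against its label, with 305 FPKM of Thy1 beside 1136 and 1172 in 5xFAD replicates 1 and 2 and 296, 308 and 340 in WT. Thy1 has no row in the junction table, so the labels of the AT libraries could not be checked in that way. Of 14 markers of excitatory neurons none was at 0 in the CG table, and their summed level was 1917 to 2068 FPKM in WT and 1865 to 1986 in 5xFAD. Markers of the choroid plexus, which adjoins the hippocampus, summed to between 115 and 3401 FPKM in WT and between 124 and 676 in 5xFAD, and none of these 10 genes was a host here.

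The single junctions were mostly low. Averaged over the 6 libraries, member signal had a median of 6.99 (quartiles 4.40 and 13.4) and ran from 1.25 to 423. Mid-length junctions of hosts with 2 or more had a median of 8.90 (quartiles 4.96 and 19.8) and reached 2722. Signal was under 5 in 410 members, 5 to under 10 in 424, 10 to under 20 in 240, 20 to under 50 in 132 and 50 to under 100 in 54. The remaining 19 were at 100 or more, among 263 listed junctions at that level. The 134 highest members held 50% of the summed member signal, and the 12 highest 14.1%.

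Members held 11.996%, 11.9% and 11.7% of all junction signal in the 3 WT libraries and 11.5%, 12.4% and 11.9% in 5xFAD. The genotypes overlapped, with means of 11.9% ± 0.131 (SD, n = 3) in WT and 11.9% ± 0.458 (SD, n = 3) in 5xFAD, and a difference of 0.0349 percentage points (exact permutation test, two-sided, p = 0.9, where the smallest p that 3 against 3 allows is 0.1). Without both replicates 1 both 5xFAD shares lay above both WT shares, with a difference of 0.323 points (exact permutation test, two-sided, p = 0.333, the smallest that 2 against 2 allows). The median log2(signal + 1) of members lay below that of the other 5746 junctions in every library, with differences of -0.31 to -0.23. That gap differed between genotypes by -0.0043 (exact permutation test, two-sided, p = 0.8).

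Member intervals had a median length of 5677 bp, against 11408 bp for mid-length junctions of hosts with 2 or more. Length and level were nearly unrelated across the 1279 members (Spearman rho -0.0093, Pearson r -0.018, given as a description of junctions that share the same 6 libraries). Median signal was 7.32 in the 212 members under 2000 bp and 6.85 in the 125 members of 20000 bp or more. At the limits, Smarcc2 (995 bp, mean signal 7.75) and Rtn2 (976 bp, 31.4) fell just short, and Mecr (1001 bp, 16.0) and E2f5 (1004 bp, 84.7) just inside. At the upper end Ncoa7 (49195 bp, 6.53) and Tmem29 (46990 bp, 6.84) were inside, and Ankrd44 (50409 bp, 2.06) and Prdm16 (52293 bp, 6.28) outside.

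The highest member was the junction of Smox, spermine oxidase, an enzyme of polyamine breakdown (chr2:131337719-131342179, 4460 bp). Its signal was 419, 376 and 437 in WT and 534, 362 and 412 in 5xFAD, the genotypes overlapped, and it ranked 27 among all listed junctions. Ttc19, an assembly factor of respiratory complex III (chr11:62097098-62105720, 8622 bp), gave 319, 245 and 269 in WT and 327, 196 and 290.4 in 5xFAD. Both were high in every library and neither separated the genotypes.

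Hipk3, a nuclear kinase whose circle is among the best studied of all circular RNAs, had a junction of 1099 bp (chr2:104310905-104312004). Its signal was 113, 293 and 352 in WT and 94.4, 388 and 384 in 5xFAD, low in both replicates 1 and high in the other 4 libraries. Its log2 difference was 0.09 (SE 0.52) with all libraries and 0.27 without both replicates 1. Rras2, a small GTPase of the Ras family (chr7:121202053-121203933, 1880 bp), showed the opposite order, at 329, 183 and 222 in WT and 416, 201 and 166 in 5xFAD, with both replicates 1 on top.

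Over all members, both replicates 1 lay below the other 4 libraries in 143 members (11.2%, against 12% of all junctions) and above them in 163 (12.7%, against 13.1%). These shares were near those of the whole table. What sets these libraries apart was not tested.

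Acer3, an alkaline ceramidase of sphingolipid metabolism (chr7:105392458-105414757, 22299 bp), was at 308, 297 and 256 in WT and 111, 280.2 and 226 in 5xFAD. Mipep, a mitochondrial peptidase (chr14:61462044-61494144, 32100 bp), was at 268, 209 and 280.0 in WT and 330.0, 167 and 222 in 5xFAD. Their groups overlapped. Nova2, a neuronal splicing factor (chr7:19527564-19535968, 8404 bp), was at 172, 160.2 and 111 in WT and 305, 136 and 145 in 5xFAD, and Rps6kb1, the S6 kinase downstream of mTOR (chr11:86346273-86348962, 2689 bp), at 171, 144 and 178 in WT and 290.2, 114 and 132. In both, 5xFAD replicate 1 was the highest of the 6 libraries.

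Ank3, the ankyrin of the axon initial segment (chr10:69457119-69462246, 5127 bp), was at 237, 136 and 125 in WT and 183, 113 and 181 in 5xFAD. Whsc1, a histone methyltransferase (chr5:34185760-34188916, 3156 bp), was at 129, 173 and 214 in WT and 45.9, 245 and 164 in 5xFAD. These groups overlapped too. Acvr2a, an activin receptor (chr2:48725808-48728993, 3185 bp), was at 226, 155 and 166 in WT and 121, 138 and 154 in 5xFAD, the only one of the 12 whose groups did not overlap, with the nearest libraries of each genotype almost equal. Psmd2, a regulatory subunit of the proteasome (chr16:20656615-20657682, 1067 bp), was at 125, 141 and 165 in WT and 183, 126 and 181 in 5xFAD. None of the 12 passed the genotype test (limma, lowest adjusted p = 0.914, absolute log2 differences up to 0.58).

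**Figure D1:**
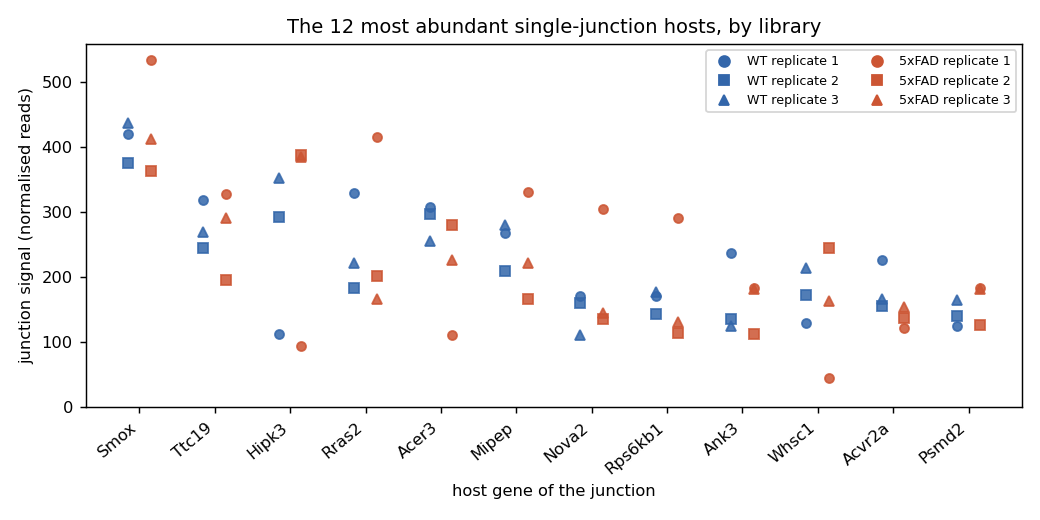
Signal (normalised reads, vertical axis) of the 12 members with the highest mean signal, 1 column per host gene, with 1 point per library (blue WT, orange 5xFAD, shape for replicate number). Smox lies between 362 and 534, Hipk3 is low in both replicates 1 (113 and 94.4), and the genotypes overlap in 11 of the 12.

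Host genes of the members were less expressed than hosts with several junctions. In the CG libraries, the median FPKM of member hosts was 14.0, 15.0 and 14.8 in WT and 14.0, 14.5 and 14.7 in 5xFAD. Hosts with 2 or more junctions had medians of 18.7, 20.0 and 19.3 in WT and 17.9, 18.6 and 19.2 in 5xFAD. The member hosts were lower in 6 of 6 libraries, with differences on the log2(FPKM + 1) scale of -0.39, -0.39 and -0.36 in WT and -0.34, -0.34 and -0.37 in 5xFAD. The mean difference was -0.37. The same hosts are compared in every library, so a sign-flip test over libraries returns its smallest p by construction and the difference is given as a description. How many junctions a host has listed depends on the listing threshold, and the part of that threshold in this difference was not tested. Against the 563 hosts with exactly 2 junctions the mean difference was -0.18, also in 6 of 6 libraries.

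Junction level followed host level only weakly. Across the 1279 members, WT mean signal in AT and WT mean FPKM of the host in CG had a Spearman rho of 0.075 (Pearson r 0.084 on log2 values), a description of genes measured in separate libraries of the same tissue. Over the single AT libraries rho ran from 0.043 to 0.106. The mid-length junctions of hosts with 2 or more gave a rho of 0.043, and the highest junction of each such host 0.122. When members were ranked by host FPKM and divided into quintiles, median WT signal was 6.48, 6.65, 6.73, 8.19 and 7.97, while median host FPKM went from 3.63 to 54.8. Hosts far apart in expression thus carried listed junctions of similar level. Junctions under the listing threshold of 2.03 are absent at every host level, and the part of this in the flat medians and low rho was not tested.

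**Figure D2:**
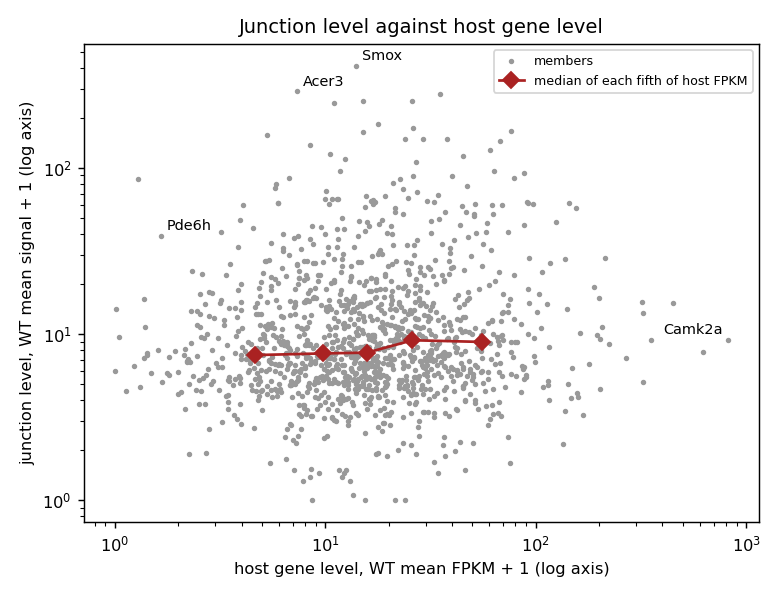
WT mean junction signal + 1 (vertical, log axis) against WT mean FPKM + 1 of the host gene (horizontal, log axis), 1 grey point per member, with the median of each quintile of host FPKM in red. The quintile medians of these listed junctions stay between 6.48 and 8.19 signal over the whole range of host level. Junctions under the listing threshold are absent. Smox and Acer3 lie at the top, Pde6h far left and Camk2a far right.

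The ratio of WT mean signal to WT mean host FPKM had a median of 0.536 (quartiles 0.216 and 1.36) over the 1266 members whose host reached 0.5 FPKM. This ratio joins 2 kinds of library, so it orders hosts and is not a share of circular RNA. It exceeded 10 in 26 members. The highest was Pde6h, the inhibitory subunit of the cone photoreceptor phosphodiesterase, at 57.7. Its junction (chr6:136907746-136911925) gave 19.8, 50.8 and 43.3 in WT and 32.9, 23.3 and 39.2 in 5xFAD, from a host of 0.658 ± 0.256 FPKM (SD, n = 3) in WT. The junction was thus well above the member median in all 6 libraries while its gene was among the least expressed hosts.

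Acer3 (45.2, host 6.35 ± 0.966 FPKM, SD, n = 3), 4933406I18Rik (36.5, host 4.28 ± 1.24), Smox (31.5, host 13.0 ± 1.25) and Rras2 (24.6, host 9.95 ± 0.644) followed. The 4933406I18Rik junction was steady across libraries, at 147, 152 and 169 in WT and 137, 148 and 119 in 5xFAD. Ripk2, a kinase of innate immune signalling downstream of NOD receptors, came next (19.3), with a junction at 56.5, 67.0 and 53.6 in WT and 26.9, 55.1 and 65.2 in 5xFAD. Msrb3, a methionine sulfoxide reductase, had a ratio of 18.3 and Tox, a nuclear factor known from T cell development, 18.2. The Tox junction was at 101, 178 and 127 in WT and 137, 212 and 106 in 5xFAD.

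In 13 members the host was under 0.5 FPKM in WT, and the ratio was not taken. The highest junction among them, chosen after its values were seen, was that of 6530403H02Rik (chr3:120475599-120502665), at 74.8, 64.0 and 115 in WT and 43.3, 82.0 and 96.8 in 5xFAD, with a host of 0.293 ± 0.136 FPKM (SD, n = 3). It was also the only member that shared an end with another listed interval. The partners, of 30589 bp (mean signal 16.7) and 2552 bp (5.89), had no gene named, and whether they belong to the same host was not tested. For 1700015F17Rik the host was listed at 0 in all 3 WT libraries, and such a 0 may stand for a failed estimate.

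At the other end stood abundant genes with a faint junction. Camk2a, the calcium/calmodulin-dependent kinase of excitatory synapses, was the most expressed host at 821 ± 84.9 FPKM (SD, n = 3) in WT, and its junction (chr18:61123576-61139808) gave 8.61, 11.2 and 4.91 in WT and 37.2, 4.52 and 10.04 in 5xFAD, a ratio of 0.010. The high value was in 5xFAD replicate 1, and the groups overlapped. Abr, a regulator of small GTPases, had a host level of 133 ± 8.51 FPKM and a junction at 0.748, 1.82 and 0.936 in WT and 2.60, 2.26 and 7.17 in 5xFAD. Dnajc5, the cysteine string protein of synaptic vesicles (host 74.0 ± 12.1 FPKM), had a junction at 0, 1.60 and 0.468 in WT and 2.60, 3.84 and 2.87 in 5xFAD. In both, every 5xFAD library was above every WT library, and neither passed (limma adjusted p = 0.905 for Abr and 0.793 for Dnajc5). Both junctions reached the listing threshold of 2.03 in 5xFAD only, so their separation is no evidence of a genotype effect.

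Hosts of known roles were spread over the whole range. In all, 448 members (35.0%) fell into at least 1 of 17 lists of host roles, and no junction of any list was called between genotypes. The 29 hosts of mitochondria and metabolism had the highest median signal, 12.8, against 6.99 over all members. Beside Mipep they included Atp5c1, a subunit of ATP synthase, at 45.3, 65.6 and 69.9 in WT and 6.93, 73.7 and 69.1 in 5xFAD. The groups overlapped, and the low value was in 5xFAD replicate 1.

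RNA-binding proteins numbered 52 hosts, with a median signal of 8.38. Nktr was at 95.1, 62.7 and 55.4 in WT and 29.5, 113 and 53.8 in 5xFAD. Ikbkap, the scaffold of the Elongator complex for tRNA modification, was at 60.2, 54.0 and 63.9 in WT and 72.8, 45.0 and 67.4 in 5xFAD. The list of circular RNA biogenesis and decay held 6 hosts, with a median signal of 8.24. Besides Nova2 these included the RNA editing enzyme Adarb1, at 7.11, 7.52 and 6.08 in WT and 13.9, 7.68 and 11.95 in 5xFAD. The Adarb1 groups did not overlap, and its log2 difference of 0.59 (SE 0.54) did not pass (limma adjusted p = 0.936).

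Synaptic hosts combined high gene expression with ordinary junctions. The 17 hosts of synaptic vesicles and active zones had a median host level of 64.7 FPKM and a median signal of 6.86, and the 20 postsynaptic hosts 43.1 FPKM and 5.94. Their median ratios were 0.149 and 0.175, against 0.536 over all members. Syn1, the vesicle phosphoprotein synapsin, gave 76.0, 52.4 and 41.4 in WT and 61.5, 40.0 and 58.6 in 5xFAD from a host of 155 ± 12.7 FPKM (SD, n = 3). Dlgap2, a scaffold of the postsynaptic density, gave 27.3, 41.5 and 50.3 in WT and 81.4, 37.3 and 23.4 in 5xFAD. Neither separated the genotypes.

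The 32 hosts of DNA repair, centrosome and cilia had low gene expression instead, with a median host level of 7.36 FPKM, a median signal of 5.85 and a median ratio of 1.02. Their median signal was near the 5.94 of the postsynaptic hosts, so the ratios of these lists differed mainly through host FPKM. Sclt1, a protein of centriole appendages, gave 67.7, 25.5 and 24.3 in WT and 48.5, 28.9 and 20.3 in 5xFAD from 5.31 ± 1.32 FPKM (SD, n = 3), again highest in both replicates 1. Rad23b, which takes part in nucleotide excision repair, gave 62.5, 61.8 and 54.5 in WT and 65.8, 56.5 and 37.8 in 5xFAD. The groups overlapped in both.

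Several large lists lay near the member median. The 53 hosts of chromatin and transcription had a median signal of 6.63, the 51 of membrane trafficking 6.96, the 40 of ubiquitin ligases and deubiquitinases 7.05 and the 36 kinases 7.37. Ube3a, the ubiquitin ligase imprinted in neurons, was at 58.8, 29.9 and 31.3 in WT and 111, 33.9 and 16.3 in 5xFAD, high in both replicates 1. Trappc11, of the vesicle-tethering TRAPP complex, was at 77.5, 66.1 and 96.4 in WT and 94.4, 82.9 and 64.3 in 5xFAD. The 17 hosts of nuclear pore and transport had the lowest median signal, 4.93, with Ipo7, an import receptor, highest at 65.1, 39.9 and 27.6 in WT and 47.6, 60.1 and 49.7 in 5xFAD.

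**Figure D3:**
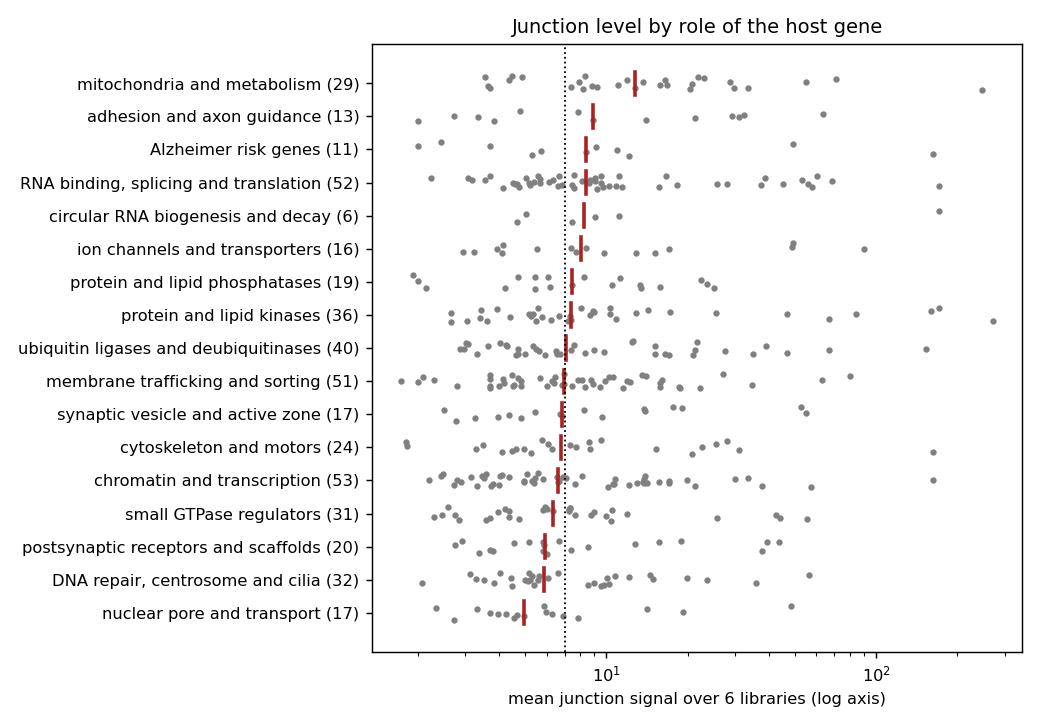
Mean junction signal over the 6 libraries (horizontal, log axis), 1 grey point per member, for 17 lists of host roles with the number of members in brackets; red bars are list medians and the dotted line is the median of all members (6.99). List medians run from 4.93 for nuclear pore and transport to 12.8 for mitochondria and metabolism.

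Among 11 hosts from a list of Alzheimer's disease risk genes, Ank3 was the highest. Cd2ap, an adaptor of endocytosis and the actin cytoskeleton, was at 55.0, 41.0 and 33.7 in WT and 20.8, 103 and 42.1 in 5xFAD. Mef2c, a neuronal and microglial transcription factor, was at 18.7, 10.3 and 12.2 in WT and 2.60, 16.3 and 12.4 in 5xFAD. Plcg2, a phospholipase of microglia, was at 5.24, 7.52 and 12.6 in WT and 30.3, 6.33 and 3.35 in 5xFAD. The genotypes overlapped in all 3, and 5xFAD replicate 1 was the lowest library for Cd2ap and Mef2c and the highest for Plcg2.

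A few marker genes of brain cell types were hosts. Prox1, a transcription factor of dentate granule cells, had a junction at 3.74, 2.28 and 5.15 in WT and 1.73, 12.9 and 9.08 in 5xFAD. Its groups overlapped. Slc1a2, the glutamate transporter of astrocytes, was at 13.8, 2.96 and 3.51 in WT and 0, 1.81 and 2.63 in 5xFAD, from a host of 622 ± 121 FPKM (SD, n = 3). Its groups did not overlap and its log2 difference was -1.57 (SE 0.72, limma adjusted p = 0.859). The Slc1a2 junction reached the listing threshold of 2.03 in WT only, so this separation is no evidence of a genotype effect. Camk2a is described above. In bulk tissue, fewer cells of a type and less RNA per cell cannot be told apart.

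Members were detected (signal above 0) in all 6 AT libraries in 979 cases, or 76.5%, against 81.1% of all junctions. A further 274 were detected in 5 libraries, 22 in 4 and 4 in 3. Fewer than 3 was not possible, because in every listed junction the 3 libraries of 1 genotype, or of both, all reach a signal of 2.03. Members reached it in both genotypes in 671 cases, in WT only in 314 and in 5xFAD only in 294.

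Zeros gathered in both replicates 1. Members at 0 numbered 140, 9 and 39 in WT and 130, 4 and 8 in 5xFAD. Of the 300 members at 0 in at least 1 library, 246 were at 0 only in a replicate 1. Without these 2 libraries, 1225 members (95.8%) were detected in all of the 4 others.

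The zeros of the 2 libraries fell at different depths. The 130 members at 0 in 5xFAD replicate 1, the library with 191408 reads, had in the other 5 a median signal worth 5.86 reads of that library. The 140 at 0 in WT replicate 1 had a median signal elsewhere worth 12.7 reads of it. Zdhhc21, a palmitoyltransferase, was the strongest case in 5xFAD, at 17.6, 46.0 and 24.6 in WT and 0, 87.0 and 66.4 in 5xFAD. Zfp516, a zinc finger protein, was the strongest in WT, at 0, 30.5 and 28.3 in WT and 7.80, 30.1 and 36.6 in 5xFAD. In both, the other libraries of the same genotype were well above the member median.

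Detection rose with level, in part by construction, since a 0 in a library lowers the mean signal by which members are ranked. From the lowest to the highest quintile of mean signal, 41.8%, 68.8%, 83.9%, 91.0% and 97.3% of members were detected in all 6 libraries. By host FPKM the shares were 74.2%, 74.2%, 76.5%, 79.3% and 78.5%. The spread within a genotype, as the median SD of log2(signal + 1), was 0.73 over the members and 0.47 without both replicates 1.

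**Figure D4:**
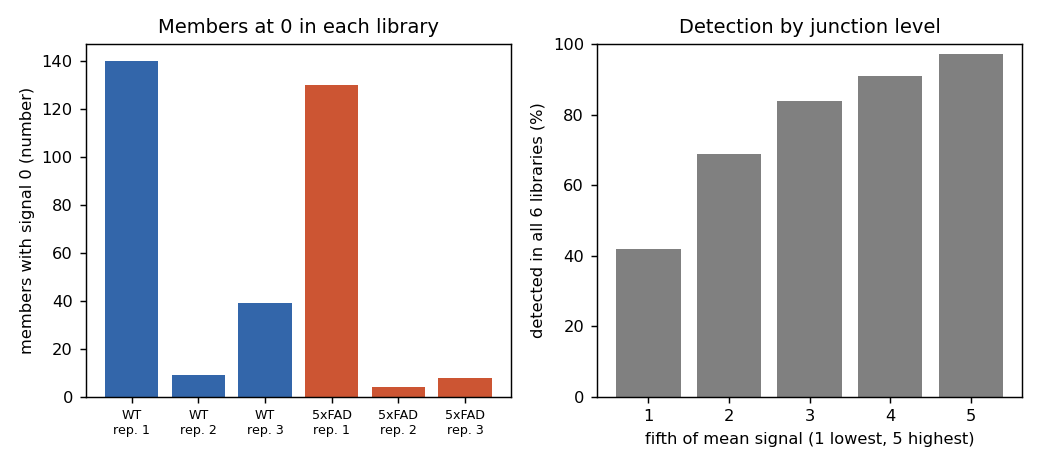
Left, number of members with signal 0 (vertical axis) in each AT library, blue WT and orange 5xFAD: both replicates 1 stand out with 140 and 130, and the other 4 have 4 to 39. Right, percent of members detected in all 6 libraries by quintile of mean signal, rising from 41.8% to 97.3%, in part because a 0 lowers the mean.

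The comparison of 5xFAD with WT asked which of these junctions differ with genotype. No member passed (limma on log2(signal + 1) over all 7025 junctions, Benjamini-Hochberg adjusted p under 0.05, 0 of 1279 called, background 0%), and edgeR on recovered reads called none either. The lowest member adjusted p was 0.368. At an unadjusted limma p under 0.05 there were 87 members (6.80%, against 5.68% of all junctions), 38 higher in 5xFAD (2.97%, background 2.51%) and 49 lower (3.83%, background 3.17%), and 45 with edgeR (3.52%, against 2.88%). The groups did not overlap in 65 members higher (background 4.43%) and 82 lower (background 6.65%), or 11.5% in all against 11.1%. These shares were near those of the whole table. The median log2 difference of members was -0.06, as for all junctions. Without both replicates 1 it was -0.01 for members and -0.05 for all junctions. The direction of the member median turned to 0.01 without 5xFAD replicate 1 and with edgeR, and to 0.04 with DESeq2.

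The listing threshold of 2.03 shapes these counts. All 38 of the higher members with p under 0.05 reached it in 5xFAD only, and 46 of the 49 lower ones in WT only. A junction listed through 1 genotype had to be low in at least 1 library of the other, so these counts are no evidence of a genotype effect. Of the 671 members that reached the threshold in both genotypes, 3 had p under 0.05 (0.447%, background 0.786%), and 44 did not overlap, 16 higher (2.38%, background 2.38%) and 28 lower (4.17%, background 4.55%). Requiring the threshold in both genotypes also selects on the tested values, since it leaves out junctions low in 1 genotype. The counts among the 671 are thus partly built in as well and do not settle whether genotype has an effect.

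Those 3 junctions, named after their values were seen, were all lower in 5xFAD. Larp4b, an RNA-binding protein of the La family, was at 12.3, 15.0 and 16.1 in WT and 2.60, 7.46 and 4.54 in 5xFAD, and its log2 value differed by -1.48 (SE 0.57, limma adjusted p = 0.793). Gng4, a G protein gamma subunit, was at 9.73, 11.2 and 12.2 in WT and 3.46, 5.88 and 2.15 in 5xFAD, differing by -1.38 (SE 0.59, limma adjusted p = 0.818). Fbn1, the microfibril protein fibrillin, was at 33.7, 45.6 and 63.6 in WT and 29.5, 24.9 and 23.2 in 5xFAD, a difference of -0.82 (SE 0.38, limma adjusted p = 0.870). In each the 3 WT libraries were above the 3 of 5xFAD, and none passed the test. In WT their host genes averaged 21.3 ± 1.81, 10.5 ± 2.28 and 2.91 ± 0.879 FPKM, and the 5xFAD means were 21.3 ± 2.02, 8.29 ± 2.79 and 2.85 ± 0.559 FPKM (SD, n = 3 libraries throughout).

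At 0 in all 3 WT libraries were 4 junctions, and none was at 0 in all 3 of 5xFAD (0.313% of members at 0 throughout 1 genotype, against 0.128% of all junctions). Uap1, which makes the sugar donor UDP-N-acetylglucosamine (chr1:172079401-172097079, 17678 bp), was at 3.46, 6.55 and 9.32 in 5xFAD, at least 24.4-fold higher against a floor of 3 reads over the WT group. Tfcp2, a transcription factor (chr15:100355997-100358977, 2980 bp), was at 10.4, 2.26 and 2.87, at least 19.6-fold higher, and at least 9.69-fold higher without 5xFAD replicate 1. Dbnl, a drebrin-like actin adaptor (chr11:5691794-5694314, 2520 bp), was at 2.60, 2.26 and 2.63, at least 9.43-fold higher. Such a junction is listed only because it reached the threshold in 5xFAD, so these folds are no evidence of a genotype effect. The floor covers counting error only, and the values rest on few reads, since 1 read in 5xFAD replicate 1 is a signal of 0.866.

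On the log2(signal + 1) scale the difference was 2.81 (SE 0.53) for Uap1, 2.39 (SE 0.56) for Tfcp2 and 1.80 (SE 0.43) for Dbnl, with limma adjusted p = 0.368 for each. Uap1 was called by DESeq2 on recovered reads (adjusted p = 0.0207, background 0.0142%) and by limma with array quality weights (adjusted p = 0.00995, background 0.0285%), and by neither limma with equal weights nor edgeR (adjusted p = 0.608). Over the alternatives run, its adjusted p ran from 0.00995 to 0.996. For the Uap1 gene itself, WT libraries averaged 14.5 ± 0.485 FPKM and 5xFAD libraries 15.0 ± 0.667 FPKM (SD, n = 3 per genotype). Fig4, a phosphoinositide phosphatase, was at 0, 0 and 0.234 in WT and 5.20, 2.94 and 3.11 in 5xFAD, a difference of 2.11 (SE 0.48, limma adjusted p = 0.368).

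In the other direction the smallest p-values belonged to Tgfbr3, Wdr47, Adgra1, Mtmr6 and Ctage5. Tgfbr3, the TGF-beta co-receptor betaglycan, was at 5.61, 4.56 and 3.98 in WT and 0, 0.226 and 0 in 5xFAD, a difference of -2.41 (SE 0.49). Wdr47, a microtubule-linked WD-repeat protein, was at 5.24, 8.43 and 11.9 in WT and 0, 1.13 and 0.717 in 5xFAD, a difference of -2.57 (SE 0.61). Both had a limma adjusted p = 0.368. Adgra1, an adhesion G protein-coupled receptor, was at 5.61, 2.73 and 4.21 in WT and 0, 0.226 and 0.478 in 5xFAD. Mtmr6, a phosphoinositide phosphatase, was at 6.36, 3.19 and 2.10 in WT and 0, 0.226 and 0.956 in 5xFAD, and Ctage5, of endoplasmic reticulum exit sites, at 12.3, 10.3 and 3.04 in WT and 1.73, 1.58 and 0.239. All 5 were separated between genotypes, reached the listing threshold in WT only and did not pass (limma adjusted p up to 0.716).

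**Figure D5:**
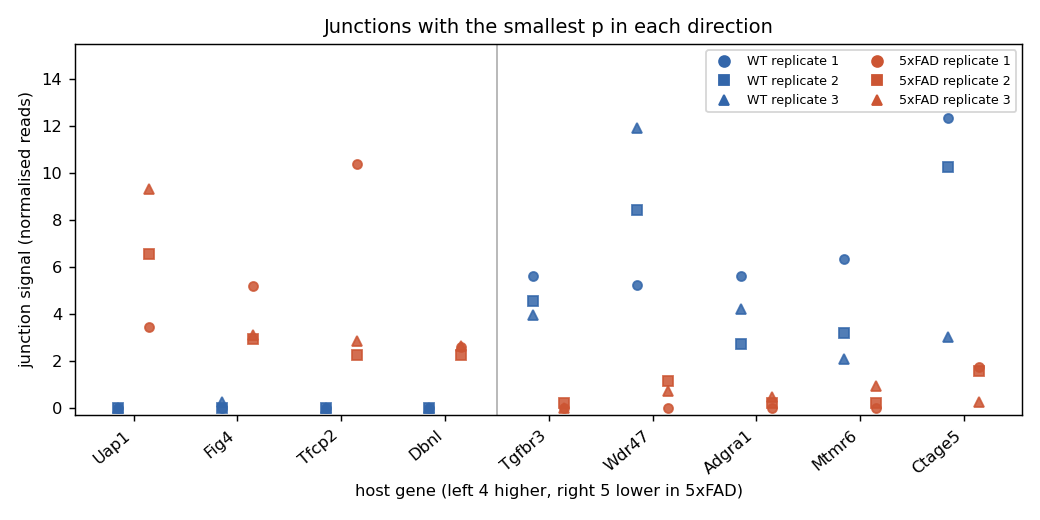
Signal (normalised reads, vertical axis) of members with the smallest p in each direction among those whose groups do not overlap, 4 higher and 5 lower in 5xFAD, 1 column per host, 1 point per library (blue WT, orange 5xFAD, shape for replicate number). All values are under 13, the left 4 are at or near 0 in WT and the right 5 at or near 0 in 5xFAD; none passed limma over the 6 libraries.

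The authors' deposited table gives an adjusted p under 0.05 for 54 members (4.22%, against 3.76% of all junctions), 23 higher (background 1.52%) and 31 lower (background 2.23%). Of these, 44 reached the listing threshold in 1 genotype only. In the authors' deposited table Dbnl, at the lowest mean signal of all members, has an adjusted p of 2.73e-95, and Tfcp2, whose 5xFAD values spread more, 0.391.

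Host genes gave no genotype difference either. Of the 1266 tested hosts, limma on log2(FPKM + 1) called 0 over the 6 CG libraries (1 of 14500 genes, background 0.0069%), and 14 had an unadjusted p under 0.05 (1.11%, against 2.92% of all genes). Without the library labelled 5xFAD replicate 3, 1 of 1267 member hosts was called (0.0789%, background 1.2%) and 32 had an unadjusted p under 0.05 (2.53%, background 5.91%). The called host was Tgfbr2, the type II TGF-beta receptor. Its WT libraries held 3.99, 4.09 and 3.66 FPKM, and those labelled 5xFAD held 9.94, 10.5 and 4.26. The log2 difference was 1.19 without that library (limma adjusted p = 0.00493) and 0.83 with it (SE 0.28, limma adjusted p = 1.00). The summed level of 12 microglia markers, none at 0, moved the same way, at 923, 831 and 218 FPKM for the libraries labelled 5xFAD beside 204, 221 and 228 FPKM for WT, and their part in the Tgfbr2 difference was not tested. The Tgfbr2 junction was at 9.73, 0.912 and 2.10 in WT and 4.33, 3.62 and 2.39 in 5xFAD, and its groups overlapped. Across the 1266 members, junction difference and host difference had a Spearman rho of 0.067 (Pearson r 0.073), given as a description of separate libraries.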

How the data were processed

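Per the file headers, the junction table gives the authors' normalised signal in 6 AT libraries, alongside a log2 ratio and raw and adjusted p-values of their own, and the gene table gives the authors' FPKM in 6 CG libraries. DESeq (no version) and mm9 come from the submitters' processing notes. The sources used here name no aligner, junction caller, annotation or quantifier. Interval ends are printed as deposited, and whether they count from 0 or 1 is not stated.

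All deposited signal values (100%) divided by the smallest step of their library came out whole to within 0.01, which recovered read counts. FPKM depth is unknown. Genotype was tested with limma 3.58.1 (R 4.3.3, mean trend, two-sided) on log2(value + 1), over features with a mean of at least 0.5, adjusted over all features. On this scale the change of low features is understated. edgeR 4.0.16 (quasi-likelihood) and DESeq2 1.42.0 on recovered counts were alternatives. The limma and edgeR fits were tested on simulated data, and DESeq2 was not. Library values were compared by exact permutation. Confidence intervals and floors cover counting error only.

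The rule for named members took the 12 with the highest mean signal, the 8 highest and 8 lowest by signal per host FPKM, the 5 with the smallest p in each direction among those not overlapping where fewer than 5 were called, those at 0 throughout 1 genotype, those at the length limits, the 4 highest of each role list and called hosts. Gigyf2 and App, also in the rule, were not members, and a few members that the rule names are not reported here. Members, role lists and markers were chosen with earlier results of these data known. Alternatives covered the pseudocount, filter, normalization, test, replicate block, length limits and each library left out.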

Additional observations from a re-analysis of the deposited data

How the results depend on the processing

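The deposited signal covers listed junctions only, the median member had about 7 normalised reads, and 3 libraries per genotype limit every test. No member was called under any pseudocount, filter, quantile normalization, length limit, left-out library or edgeR fit, without both replicates 1 (added after the data were seen; 112 with unadjusted p under 0.05) or with a replicate block (0 with limma, 81 with p under 0.05; edgeR 0 and 24). Array quality weights and DESeq2 each called 1, Uap1, and the cause was not tested. Unadjusted counts were 43 at pseudocount 0.1, 101 at pseudocount 5 and 12 with a mean signal of at least 5, where fewer junctions were tested. The median log2 difference of members ran from -0.11 to -0.04 with another single library left out, and was 0.01 without 5xFAD replicate 1, 0.01 with edgeR, 0.04 with DESeq2 and 0.03 with edgeR without both replicates 1. Deviations of same-numbered libraries from their group means correlated at 0.068, 0.088 and 0.040 in AT and 0.415, 0.279 and 0.040 in CG. The labels state no pairing beyond the number, and what same-numbered libraries share was not tested. Not every library matched its own number best, namely 5xFAD number 3 in AT and both number 3 libraries in CG. With a replicate block 0 hosts were called (28 with p under 0.05).

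Calls among hosts ranged from 0 to 1 when 1 library was left out, the 1 being Tgfbr2 without 5xFAD replicate 3. The difference in members' share of signal ranged from -0.202 to 0.256 percentage points with 1 library left out, was -0.131 for lengths of 2000 to 20000 bp and was 0.323 without both replicates 1. The difference in the gap to other junctions ranged from -0.0235 to 0.0154, and was -0.0792 for those lengths, 0.0189 without both replicates 1 and 0.00592 against mid-length junctions with a gene named. Both reversed in sign, the cause was not tested, and no setting could pass, since the smallest p that 3 against 3 allows is 0.1. Host level against hosts with several junctions kept its sign, from -0.371 to -0.360 with 1 library left out. Junctions detected in all libraries numbered 858 at a signal of at least 1, 839 at 3 reads or more and 1225 without both replicates 1, by construction of these settings. Among 170 alternatives for the 10 junctions with the smallest p, 168 kept direction and side of the threshold and 2 (Uap1) passed it. These 10 were chosen from the same data for groups that do not overlap, so the kept direction was largely built in and is no support. All 10 had a mean signal under 5, so the filter at 5 left them out and is not among the 170.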
